A study of Mus musculus with 6 samples.

Results

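The genes described here encode the main cell surface and basement membrane heparan sulfate proteoglycans together with CD44, in spheroids of the mouse mammary tumor cell line D2A1. They are the 4 syndecans Sdc1, Sdc2, Sdc3 and Sdc4, the 4 glypicans Gpc1, Gpc3, Gpc4 and Gpc6, the perlecan gene Hspg2, and Cd44. They were chosen by gene symbol, and each symbol had 1 row among the 54146 genes of the deposited table. D2A1 cells were grown in 3D Matrigel culture in DMEM with 10% FBS and treated with 50 nM recombinant SLURP1 (rSLURP1) or 50 nM recombinant GST (rGST), the control protein. The labels give no genotype change in either group, and the tag that the labels call genotype holds the treatment. RNAseq was done on 3 libraries of each treatment, and nothing in the labels says whether these came from separate cultures, so p-values measure only the spread between these libraries, which may be technical. A single cell line cultured without other cells limits both groups as a model of a tumor.

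Heparan sulfate proteoglycans carry long sulfated sugar chains that bind growth factors, chemokines and matrix proteins and present them to signaling receptors. Syndecans span the membrane and act with integrins in adhesion to fibronectin and laminin, glypicans are held on the surface by a lipid anchor, and perlecan is secreted into the basement membrane, the kind of matrix from which Matrigel is made. CD44 is the main receptor for hyaluronan, a matrix sugar polymer without a protein core, and some of its splice forms also carry heparan sulfate. The study, on dormancy of disseminated breast tumor cells, asks through this experiment what recombinant SLURP1 does to gene expression in tumor cell spheroids.

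Values are TPM, which correct the reads of a gene for transcript length and scale every library to the same total, so levels can be compared between genes, whereas read depth is unknown and no counting error can be given. Between 11906 and 12449 genes reached a TPM of 1 per library. The 12301 genes that reached 1 TPM in 3 or more libraries entered a limma fit of log2(TPM + 1). Their p-values were adjusted together by the Benjamini-Hochberg method, and a gene was called at an adjusted p of 0.05 or less. On the log2(TPM + 1) scale the change of a low gene is understated, and SE below is the standard error of a log2 fold change. The median log2 fold change of all tested genes was -0.33, so a gene near that value differed as most genes did. Lower genes made up 87.1% of the calls. That share was 49.2% after median-ratio scaling, which divides a library by the median ratio of its genes to their average over libraries. The change of each tested member is therefore also given on that scale. Any other change described is given on both where its sign or its call differs, apart from the summed syndecan TPM. The labelled cell type was checked against markers. Krt18 stood at 195.6 ± 4.13 TPM and Vim at 1259 ± 78.4 TPM with rGST (SD, n = 3 each). The epithelial genes Epcam and Cdh1 had means of 0.040 TPM or less in both groups. Mean Krt8 was 1.56 TPM with rGST and 0.697 with rSLURP1. Krt19 had means of 0.22 TPM or less, and Krt5 and Krt14 were listed at 0. Of the other mesenchymal markers with rGST, Twist1 (231.7 TPM), Zeb2 (42.6) and Zeb1 (10.9) were expressed, whereas Snai2 (0.937) and Cdh2 (0.030) were near the floor.

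With rSLURP1, mean perlecan RNA fell by 47.8% and mean Cd44 RNA rose by 30.1% in TPM as deposited. The syndecans differed from each other. The abundant Sdc1 and Sdc4 passed no threshold as deposited, and the less abundant Sdc2 and Sdc3 were lower. Gpc1, the most abundant member with rGST, and Gpc6 were lower as well. Of these, Sdc2, Sdc3 and Gpc6 were not called after median-ratio scaling, where Gpc6 and Sdc1 changed sign. Of the 8 members that passed the filter on low values, 5 were called lower, 1 was called higher and 2 were not called. Of all tested genes 67.2% were called, 58.5% lower and 8.66% higher, so the 5 lower calls among 8 members are near the background. The libraries of the treatments did not overlap for 7 of the 8 members, 6 lower and 1 higher, against 71.4% of all tested genes (61.7% lower and 9.75% higher). None of the 8 changed at least 2-fold, against 7.06% of all tested genes that were lower by that much and 1.15% that were higher. With median-ratio scaling, 2 members were lower (Hspg2 and Gpc1), 3 were higher (Cd44, Sdc1 and Sdc4) and 3 were not called, against 25.2% lower and 26.0% higher over all tested genes. The median log2 fold change of the 8 members was -0.33 as deposited and 0.01 with median-ratio scaling, where the median of all tested genes was -0.0012.

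**Figure D1:**
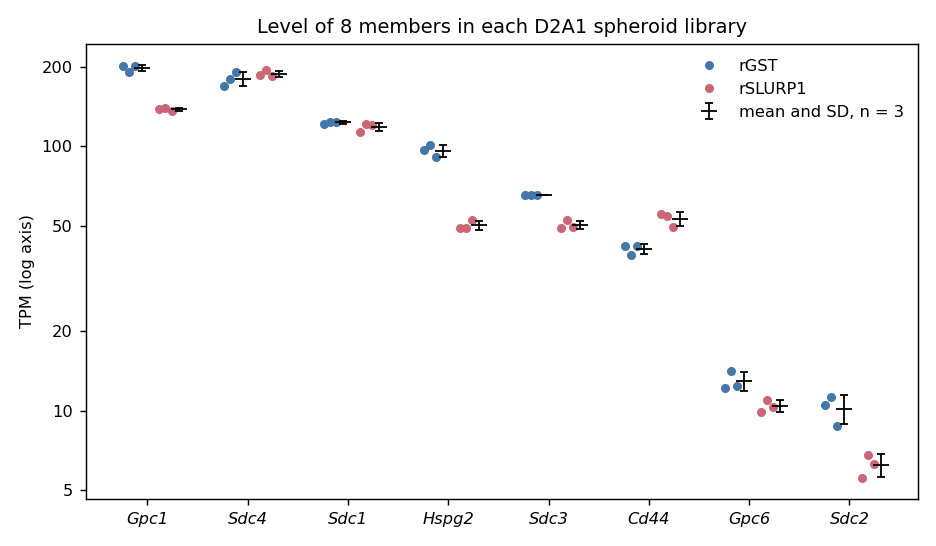
TPM on a log axis for the 8 members that passed the filter, by treatment, with each library as a point and the mean and SD (n = 3) beside it. Hspg2 and Gpc1 lay lower in all 3 rSLURP1 libraries and Cd44 lay higher, while the Sdc4 libraries overlapped between treatments.

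Hspg2 (ENSMUSG00000028763.17; GRCm38 chromosome 4, 137468769 to 137570630, plus strand) encodes perlecan, the large secreted proteoglycan that links laminin, nidogen and collagen IV networks in basement membranes. Its TPM was 97.0, 100.9 and 91.3 in the rGST libraries 1 to 3 and 49.0, 49.3 and 52.7 in the rSLURP1 libraries 1 to 3. All 3 rSLURP1 libraries lay well below the lowest rGST library, with a gap between the groups wider than the range within either. The mean was 96.4 ± 4.84 with rGST and 50.4 ± 2.07 with rSLURP1 (n = 3 each, SD). Hspg2 had a log2 fold change of -0.92 (SE 0.054, limma adjusted p = 8.73e-06), and 8.90% of tested genes had a lower one. After median-ratio scaling it was -0.57 (limma adjusted p = 1.45e-04). Perlecan has the longest transcript among the members, with 14187 bases in GENCODE M21, and removing the trend of each library with transcript length and GC content brought the log2 fold change to -0.33 (limma adjusted p = 9.91e-04). Among the 250 tested genes with a longest transcript of at least 10000 bases, the median log2 fold change was -0.46 and 12.8% lay below Hspg2, a grouping chosen after the values were seen.

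Cd44 (ENSMUSG00000005087.17; GRCm38 chromosome 2, 102811141 to 102901665, minus strand) was the only member called higher as deposited. Its TPM was 42.1, 38.8 and 41.9 with rGST and 55.7, 54.7 and 49.4 with rSLURP1. Every rSLURP1 library was above every rGST library, and the third rSLURP1 library was the closest to them. The means were 40.9 ± 1.84 and 53.3 ± 3.39 TPM (SD, n = 3 each). Cd44 had a log2 fold change of 0.37 (SE 0.063, limma adjusted p = 0.00137), above that of 93.0% of tested genes, and one of 0.72 with median-ratio scaling (limma adjusted p = 6.84e-05). The table gives 1 value per gene, so the CD44 splice forms cannot be told apart. Of the splicing factors that favor the variant exons in epithelial cells, Esrp1 was listed at 0 in all 6 libraries and Esrp2 had a mean of 0.957 TPM or less in both groups.

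Sdc4 (ENSMUSG00000017009.3; GRCm38 chromosome 2, 164424247 to 164443887, minus strand), the syndecan that joins integrins in focal adhesions, was the most abundant syndecan in both groups. Its TPM was 169.1, 180.2 and 191.2 with rGST and 186.2, 194.1 and 185.3 with rSLURP1. The groups overlapped, and the rGST libraries spread more widely than the rSLURP1 libraries. Its log2 fold change was 0.07 (95% interval -0.05 to 0.19, limma adjusted p = 0.279), and with median-ratio scaling it was 0.42 (limma adjusted p = 2.80e-04).

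Sdc1 (ENSMUSG00000020592.14; GRCm38 chromosome 12, 8771323 to 8793715, plus strand) is the syndecan typical of epithelial cells. Its TPM was 121.9, 124.0 and 123.8 with rGST and 113.5, 121.5 and 120.7 with rSLURP1. The rSLURP1 libraries lay just under the rGST libraries, by less than the spread among themselves. Sdc1 had a log2 fold change of -0.06 (95% interval -0.15 to 0.04, limma adjusted p = 0.256), and its sign turned with median-ratio scaling, where it was 0.30 (limma adjusted p = 3.88e-04).

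Sdc3 (ENSMUSG00000025743.14; GRCm38 chromosome 4, 130792537 to 130826319, plus strand) is best known from the nervous system. It had 65.4, 65.4 and 65.7 TPM with rGST and 49.1, 52.5 and 49.8 with rSLURP1. The rGST libraries were nearly identical and all rSLURP1 libraries lay below them. For Sdc3 the log2 fold change of -0.37 (SE 0.044, limma adjusted p = 2.41e-04) was close to the median of all tested genes, and with median-ratio scaling it was -0.02 (95% interval -0.11 to 0.06, limma adjusted p = 0.643); it turned to 0.13 (limma adjusted p = 0.0237) without the length and GC trend.

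Sdc2 (ENSMUSG00000022261.6; GRCm38 chromosome 15, 32920723 to 33034935, plus strand), the syndecan typical of fibroblasts and other mesenchymal cells, was the lowest of the family. It had 10.6, 11.2 and 8.72 TPM with rGST and 5.55, 6.79 and 6.29 with rSLURP1. The groups did not overlap, and the relative spread between libraries was wider than for the other syndecans. Sdc2 had a log2 fold change of -0.63 (SE 0.117, limma adjusted p = 0.00217). With median-ratio scaling it was -0.31, and the limma adjusted p = 0.0501 lay just past the threshold.

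The summed syndecan TPM was 379.1 ± 11.4 with rGST and 363.8 ± 10.3 with rSLURP1 (n = 3 each, SD; exact permutation test, two-sided p = 0.2). This sum was not tested with median-ratio scaling, so the values do not give its direction on that scale. There Sdc4 (0.42) and Sdc1 (0.30), the 2 most abundant syndecans, were called higher. Sdc2 (-0.31) and Sdc3 (-0.02) were not called. Shares within the family cannot be altered by a factor applied to a whole library. They can move with a trend in transcript length or GC content, and the shares were not computed without that trend. The share of Sdc4 was larger, and those of Sdc3 and Sdc2 smaller, in every rSLURP1 library than in any rGST library. Sdc4 held 46.1%, 47.3% and 49.1% of the sum in the rGST libraries and 52.5%, 51.8% and 51.2% in the rSLURP1 libraries. Sdc3 held 17.3% ± 0.477 with rGST and 13.9% ± 0.125 with rSLURP1 (n = 3 each, SD). Sdc2 went from 2.69% ± 0.391 to 1.70% ± 0.126 (SD, n = 3 each). Each of these 3 shares had a two-sided p of 0.1 in the exact permutation test, the smallest that 3 libraries against 3 can give. Sdc1 held 32.5% ± 0.714 with rGST and 32.6% ± 0.669 with rSLURP1 (n = 3 each, SD; exact permutation test, two-sided p = 0.9), a difference of 0.060 percentage points that turned to -0.31 without the third rGST or without the third rSLURP1 library and reached 0.41 without another.

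**Figure D2:**
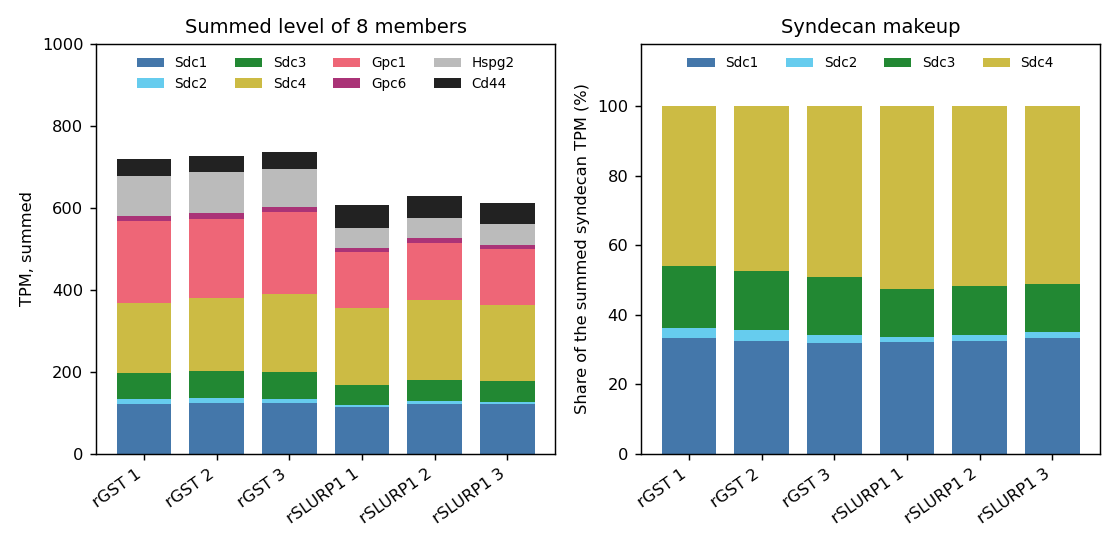
Left, TPM of 8 members summed in each library; right, the share in percent of the summed syndecan TPM held by each syndecan in each library. The Gpc1 and Hspg2 segments are shorter in the 3 rSLURP1 libraries, and Sdc4 takes 51.2% to 52.5% of the syndecan sum there against 46.1% to 49.1% with rGST.

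Gpc1 (ENSMUSG00000034220.7; GRCm38 chromosome 1, 92831645 to 92860779, plus strand) is a broadly expressed glypican that acts as a co-receptor for fibroblast growth factors. Its TPM was 202.0, 191.8 and 201.1 with rGST and 138.1, 139.7 and 136.5 with rSLURP1. The rSLURP1 libraries lay within a narrow band far below the rGST libraries. Gpc1 had a log2 fold change of -0.52 (SE 0.037, limma adjusted p = 2.10e-05) and one of -0.17 with median-ratio scaling (limma adjusted p = 0.00620). Without the length and GC trend it was -0.06 (95% interval -0.15 to 0.04, limma adjusted p = 0.283), which ended the call. Gpc1 overlaps Ankmy1 on the other strand, which had 0.390 TPM at most in any library, and whether reads were counted by strand is not given in the sources used here.

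Gpc6 (ENSMUSG00000058571.11; GRCm38 chromosome 14, 116925315 to 117976544, plus strand) had 12.2, 14.1 and 12.4 TPM with rGST and 9.92, 10.99 and 10.4 with rSLURP1. The groups did not overlap, but the gap between them was narrower than the range of the rGST libraries. Gpc6 had a log2 fold change of -0.28 (SE 0.084, limma adjusted p = 0.0184), above the median of all tested genes, and its sign turned with median-ratio scaling (0.04, limma adjusted p = 0.678). The call was lost when the second rGST library (limma adjusted p = 0.0649) or the first rSLURP1 library (limma adjusted p = 0.0578) was left out.

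Gpc3 (ENSMUSG00000055653.13; GRCm38 chromosome X, 52272426 to 52613950, minus strand) and Gpc4 (ENSMUSG00000031119.4; GRCm38 chromosome X, 52053021 to 52165252, minus strand), neighbors on the X chromosome, did not pass the filter. Gpc3 was listed at 0.09 TPM in the first rGST library, at 0.02 in the first rSLURP1 library and at 0 in the other 4. Gpc4 was listed at 0.04 TPM in the second rSLURP1 library and at 0 in the other 5. Gpc2 and Gpc5, the glypicans outside the list, were listed at 0 throughout, so nearly all glypican RNA came from Gpc1 and Gpc6. The summed TPM of the 4 listed glypicans was 211.2 ± 4.66 with rGST and 148.5 ± 1.99 with rSLURP1 (n = 3 each, SD; exact permutation test, two-sided p = 0.1). Gpc1 held 93.9% ± 0.628 of it with rGST and 93.0% ± 0.303 with rSLURP1, and these shares overlapped between the treatments (exact permutation test, two-sided p = 0.2).

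The order of the levels differed between the treatments. With rGST it ran from Gpc1 through Sdc4, Sdc1, Hspg2, Sdc3, Cd44 and Gpc6 to Sdc2, and the libraries of no adjacent pair overlapped. With rSLURP1, Sdc4 stood above Gpc1 and Gpc1 above Sdc1, again without overlap. Cd44, Sdc3 and Hspg2 followed at 53.3 ± 3.39, 50.5 ± 1.78 and 50.4 ± 2.07 TPM (SD, n = 3 each), and these neighbors did not differ beyond the spread of their libraries. Gpc6 and Sdc2 stayed last among the tested members. Within a library, Hspg2 had 2.30, 2.60 and 2.18 times the TPM of Cd44 with rGST, and 0.880, 0.902 and 1.07 times with rSLURP1. Sdc4 had 0.837, 0.940 and 0.950 times the TPM of Gpc1 with rGST, and 1.35, 1.39 and 1.36 times with rSLURP1. These pairs were chosen after the values were seen, and the ratios are given without a test. Like the shares, the order and the ratios can move with a trend in transcript length or GC content. They were not computed without that trend.

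**Figure D3:**
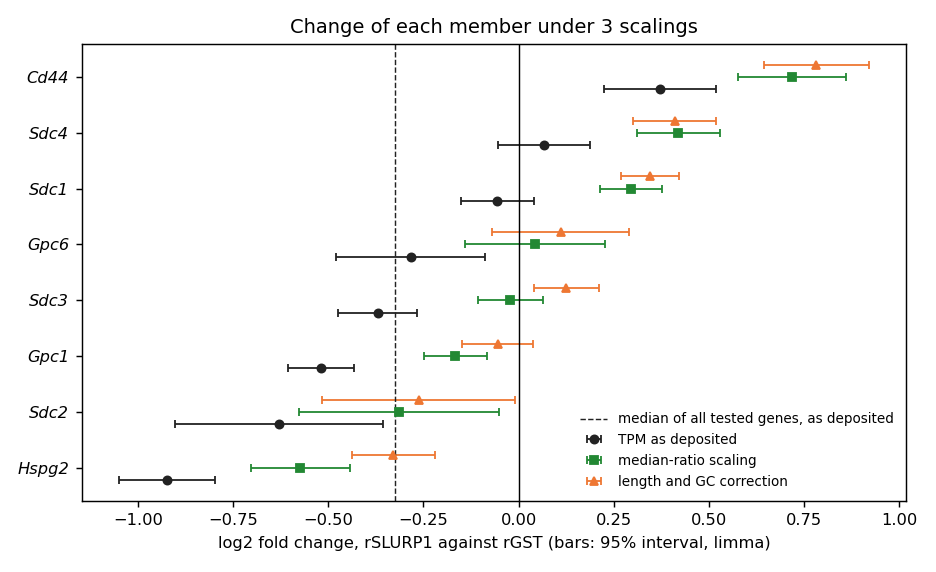
log2 fold change (rSLURP1 against rGST) with its 95% interval for each tested member as deposited, with median-ratio scaling, and without the trend in transcript length and GC content. The dashed line marks the median of all tested genes as deposited (-0.33). Hspg2 stays below 0 and Cd44 above 0 in all 3, while Sdc1, Sdc3 and Gpc6 lie on both sides of 0 depending on the scaling.

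RefSeq promoter windows (GRCm38.p6, 250 bases before to 50 after a gene's RefSeq start) were found for 7 of the 10 members. These starts can differ from the GENCODE coordinates given above, and the Sdc4 and Gpc4 windows lie inside their GENCODE genes. They were searched on both strands for the GC box bound by SP1 and related factors (GGGCGG), the AP-1 site (TGANTCA), the TATA box (TATAAA) and the motif CCCCACCC, which the study linked to KLF4. A GC box was present in all 7, against 35.7% of all 32851 windows. The KLF4 motif was present in 2 of the 7, Sdc1 and Hspg2, against 9.99% of all windows. AP-1 and TATA letters were in none of the 7, against 7.81% and 13.6% of all windows. The windows of 3 members are shown, for the member with the largest decrease, the member that was higher, and the most abundant syndecan. Capitals mark GC boxes on either strand, and GGGTGGGG in the Hspg2 window is the KLF4 motif on the other strand, which overlaps no GC box. The windows lie at chr4:137468553-137468852 (plus strand), chr2:102901616-102901915 (minus strand) and chr2:164443139-164443438 (minus strand).
Hspg2: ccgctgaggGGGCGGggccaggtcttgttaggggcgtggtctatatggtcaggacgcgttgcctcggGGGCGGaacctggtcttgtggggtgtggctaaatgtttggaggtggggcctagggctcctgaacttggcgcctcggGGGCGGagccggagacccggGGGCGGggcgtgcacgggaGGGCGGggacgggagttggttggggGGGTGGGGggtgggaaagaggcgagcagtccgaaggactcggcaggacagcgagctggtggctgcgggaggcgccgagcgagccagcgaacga
Cd44: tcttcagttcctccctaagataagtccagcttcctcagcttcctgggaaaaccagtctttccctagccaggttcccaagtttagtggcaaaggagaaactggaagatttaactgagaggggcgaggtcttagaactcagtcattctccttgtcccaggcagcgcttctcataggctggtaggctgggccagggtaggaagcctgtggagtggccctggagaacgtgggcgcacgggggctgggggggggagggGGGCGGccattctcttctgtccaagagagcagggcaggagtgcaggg
Sdc4: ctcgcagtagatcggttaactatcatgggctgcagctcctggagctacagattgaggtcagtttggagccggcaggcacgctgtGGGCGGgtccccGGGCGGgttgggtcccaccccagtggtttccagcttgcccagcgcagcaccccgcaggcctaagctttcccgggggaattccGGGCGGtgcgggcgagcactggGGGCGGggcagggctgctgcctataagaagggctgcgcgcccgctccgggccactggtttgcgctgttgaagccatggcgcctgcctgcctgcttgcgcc
The Hspg2 window holds 5 GC boxes, the Sdc4 window 4 and the Cd44 window 1, and their GC content is 70.3%, 67.7% and 58%. A match is a description of letters and not of binding.

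The genes that build, modify, cut and bind these molecules were followed in 10 lists with 144 gene symbols. Of these symbols 143 were in the table and 86 were tested. The absent symbol, Cemip2, is another name of Tmem2, which was in the table. Of these 86, 60 were lower, 6 were higher and 20 were not called as deposited, against 58.5% lower and 8.66% higher over all tested genes. With median-ratio scaling 37 were lower, 20 were higher and 29 were not called, where 25.2% of all tested genes were lower and 26.0% higher. The lists were chosen with earlier results of these data known, so the counts are a description.

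Among enzymes that assemble and sulfate heparan sulfate chains, 17 of 27 were tested, with 10 lower, 1 higher and a median log2 fold change of -0.43 (-0.10 with median-ratio scaling, 7 lower and 5 higher). The 2 largest decreases were in sulfotransferases. Hs3st1, which adds the rare 3-O-sulfate, went from 42.1 ± 2.36 to 14.2 ± 0.407 TPM (SD, n = 3 each), with log2 fold change -1.50. Hs6st1, the main 6-O-sulfotransferase here, went from 103.0 ± 1.43 to 50.6 ± 1.69 TPM (SD, n = 3 each), with log2 fold change -1.01. Ext1 and Ext2 form the enzyme complex that polymerizes the chain. Ext2 was lower (log2 fold change -0.68), whereas Ext1 had a log2 fold change of 0.04 (limma adjusted p = 0.533) and was higher with median-ratio scaling (0.40). Xylt2, which starts the chain on the core protein, was lower (-0.66), and Glce, the epimerase that acts on the growing chain, was the only one called higher (0.43).

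Of the genes that edit chains outside the cell or release core proteins, 8 of 12 were tested, with 6 lower and 1 higher (3 lower and 2 higher with median-ratio scaling). Mmp14, a membrane-bound metalloproteinase, went from 440.7 ± 8.47 to 205.7 ± 4.38 TPM (SD, n = 3 each), with log2 fold change -1.10. Adam17, a protease that sheds many surface proteins including syndecans, was higher, with 45.5 ± 2.15 TPM under rGST and 61.2 ± 2.32 under rSLURP1 (SD, n = 3 each; log2 fold change 0.42). Sulf2, which removes 6-O-sulfates, was low and fell further (-0.79), and Sulf1 had 0.190 TPM at most. Heparanase (Hpse) had a log2 fold change of -0.21 (limma adjusted p = 0.107), and 0.08 with median-ratio scaling (limma adjusted p = 0.534). The 8 lysosomal enzymes that break heparan sulfate down were all tested, with 6 lower and none higher (4 lower with median-ratio scaling), and Ids (-1.22) and Naglu (-0.996) had the largest decreases among them. In the assembly of chondroitin and dermatan sulfate, which CD44, Sdc1 and Sdc4 can also carry, 11 of 16 genes were tested and all 11 were lower (5 with median-ratio scaling). Chst15, a sulfotransferase of chondroitin sulfate, fell from 43.7 ± 2.87 to 10.95 ± 0.173 TPM (SD, n = 3 each).

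Of the CD44 partners and ligand, 6 of 8 were tested, with 5 lower and 1 higher (2 lower and 3 higher with median-ratio scaling). Ezr was the one called higher. It encodes ezrin, which ties CD44 and other surface proteins to actin, and it rose from 81.4 ± 4.07 to 180.0 ± 21.9 TPM (SD, n = 3 each; log2 fold change 1.13, limma adjusted p = 3.23e-05). The related Rdx was lower as deposited (-0.45) and was not called with median-ratio scaling (-0.10, limma adjusted p = 0.0955). Msn (-0.17) and Met (-0.18), the HGF receptor for which CD44 is a co-receptor, were lower as deposited and higher with median-ratio scaling (0.19 and 0.16). Nf2, which encodes merlin, a tumor suppressor that binds CD44, was lower (-0.76). Spp1 (osteopontin), a secreted ligand of CD44 and integrins and the most abundant gene of the list, went from 8296 ± 433.7 to 5100 ± 287.9 TPM (SD, n = 3 each; log2 fold change -0.70). Of the hyaluronan genes, 6 of 22 in the table were tested, with 3 lower and none higher (2 lower and 1 higher with median-ratio scaling). Has2, the main hyaluronan synthase here, went from 3.31 ± 0.786 to 0.767 ± 0.110 TPM (SD, n = 3 each; log2 fold change -1.27). Tmem2, a surface hyaluronidase, was lower (-0.72), and Ugdh, which makes a sugar precursor of both hyaluronan and heparan sulfate, was lower only as deposited (-0.38, and -0.03 with median-ratio scaling).

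Of the syndecan cytoplasmic partners, 8 of 9 were tested, with 5 lower and none higher, and with median-ratio scaling 1 was lower and 3 were higher. The largest decreases were in Actn1 (-0.47), Actn4 (-0.46) and Cask (-0.44). With median-ratio scaling Actn1 was still lower (-0.12), whereas Actn4 (-0.11) and Cask (-0.10) were not called. Sdcbp, which encodes the PDZ adaptor syntenin, went from 91.9 ± 5.83 to 68.2 ± 2.33 TPM (SD, n = 3 each), with log2 fold change -0.43, or -0.07 with median-ratio scaling. Prkca, the kinase that binds Sdc4, had a log2 fold change of 0.45 (limma adjusted p = 0.0755) and was called higher with median-ratio scaling (0.78, limma adjusted p = 0.0123). Of the basement membrane partners of perlecan, 8 of 10 were tested, with 5 lower and 1 higher (4 lower and 2 higher with median-ratio scaling). Fbln2, a fibulin, had a log2 fold change of -1.30, Lamc1, a laminin chain, had a log2 fold change of -0.93, and Dag1, which encodes the perlecan receptor dystroglycan, had -0.75. Prelp, a small leucine-rich protein that binds perlecan, fell from 31.5 ± 1.68 to 1.64 ± 0.487 TPM (SD, n = 3 each). Col4a1 was higher (log2 fold change 0.28), whereas the paired chain Col4a2 was not called (-0.08) and was higher with median-ratio scaling (0.27). Among other heparan sulfate proteoglycans, 4 of 10 were tested. Agrn (agrin) had a log2 fold change of -0.59, Tgfbr3 (betaglycan) -0.99 and Nrp1 (neuropilin 1) -1.32, and these 3 were lower on both scales, while Col18a1 was not called as deposited (-0.12) and was higher with median-ratio scaling (0.22).

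Growth factors that bind heparan sulfate had the lowest median of the 10 lists, -1.05 (-0.78 with median-ratio scaling), with 10 of 21 tested, 6 lower and 2 higher on the deposited scale and 6 lower and 3 higher on the other. Vegfa went from 605.4 ± 36.3 to 244.1 ± 13.1 TPM (SD, n = 3 each), with log2 fold change -1.31. Pdgfb (-1.59), Tgfb2 (-1.27) and Fgf2 (-1.24) were lower as well. Areg, an EGF receptor ligand, rose from 24.1 ± 4.32 to 50.4 ± 7.89 TPM (SD, n = 3 each), and Pgf was higher (log2 fold change 0.59).

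**Figure D4:**
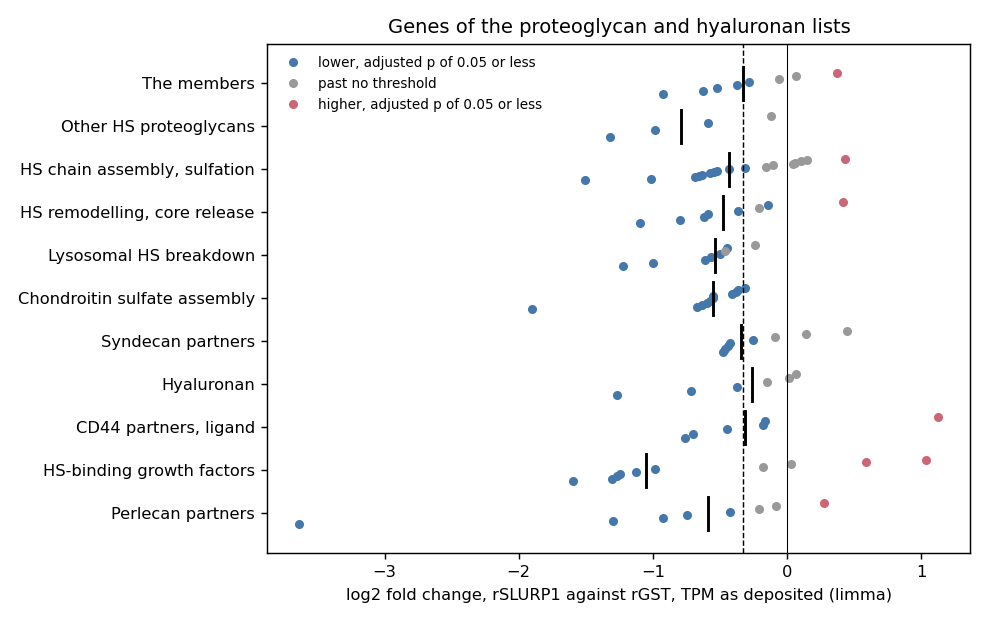
log2 fold change (rSLURP1 against rGST, TPM as deposited) of each tested gene by list, colored by call, with a bar at the median of the list and a dashed line at the median of all tested genes (-0.33); HS stands for heparan sulfate. Most called genes lie left of 0, Ezr and Areg lie farthest to the right, and the medians of all lists lie left of 0 on this scale.

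Fibroblast markers moved with the treatment. Of 11 such genes, 7 were tested and all 7 were lower by at least 2-fold, and the summed TPM of the 11 was 1204 to 1352 with rGST and 78.1 to 89.9 with rSLURP1. Dcn went from 580.7 ± 58.2 to 5.46 ± 0.379 TPM and Pdgfra from 196.8 ± 7.15 to 53.9 ± 3.32 TPM (SD, n = 3 each). Of the other 4, Col1a2, Col3a1, Fap and Thy1 had means of 0.437 TPM or less in both groups. Mesenchymal tumor cell markers were lower in all 4 tested of 6 (2 with median-ratio scaling), and the summed TPM of the 6 was 1470 to 1629 with rGST and 793.6 to 852.0 with rSLURP1. The part of these markers in the members' lower values was not tested, and in bulk RNA fewer cells of a type and less RNA per cell cannot be told apart. Of 6 immune markers Ptprc, Adgre1 and Itgam had means of 0.0067 TPM or less, and Cd68 rose from 3.77 ± 0.265 to 9.60 ± 1.61 TPM (SD, n = 3 each). The 4 endothelial markers summed to 0.310 TPM or less.

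The genes whose profile over the 6 libraries was most like that of the 3 called members with the largest changes as deposited were found by the Euclidean distance between log2(TPM + 1) values centered on their mean. For Hspg2 these were Bbs12 (distance 0.058), Tfpi (0.073) and Tle1 (0.074). For Sdc2 they were Zfp775 (0.051), Fam120aos (0.054) and Ccdc167 (0.101). For Gpc1 they were Nsfl1c (0.037), Arid1b (0.039) and Ubtf (0.040). The 6 points of each profile share 2 treatments.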

How the data were processed

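RNAseq of D2A1 spheroids was analysed in 3 rGST and 3 rSLURP1 libraries, grouped by their labels. Per the submitters' processing notes, the authors used Cutadapt 1.18, STAR 2.5.2b, RSEM 1.3.3 and mm10; the deposited table holds TPM, 1 column per library. The study's methods name earlier versions of Cutadapt and RSEM, and an earlier GENCODE release than M21. The labels name a TruSeq kit and the methods Smart-seq2. Which kit and versions were used is not settled here. The use of strand in counting is not given in the sources used here. Depth is unknown, and precision rests on the 3 libraries.

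log2(TPM + 1) was fitted with limma 3.58.1 (R 4.3.3, eBayes with trend, no block) on the 12301 genes that reached 1 TPM in 3 or more libraries. Single values were tested with an exact two-sided permutation test over libraries (scipy 1.17.1). Coordinates and lengths are from GENCODE M21 (GRCm38), which matched 54079 of 54146 identifiers without version. The test was tried on simulated data first. Named were all members, and in each list some of the called genes with the largest changes, some of the most abundant genes and some others. Nearest profiles were taken for the 3 called members with the largest changes. The members and lists were chosen with earlier results of these data known. Alternatives were another pseudocount, filter, scaling or variance model, a length and GC correction (loess, span 0.3), a replicate block, and each library left out.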

Additional observations from a re-analysis of the deposited data

How the results depend on the processing

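Hspg2 and Cd44 kept their direction and their call in all 16 alternatives run, with log2 fold changes from -0.96 to -0.33 and from 0.33 to 0.78. For the other members the call or the direction depended on the setting. Under median-ratio scaling, then quantile normalization, then removal of the length and GC trend, Sdc1 reversed to 0.30, 0.17 and 0.34, called higher, Gpc6 reversed to 0.042, 0.11 and 0.11, Sdc2 was no longer called (-0.31, -0.23 and -0.26) and Sdc4 became called (0.42, 0.28 and 0.41). Sdc3 was no longer called with the first and second of these (-0.022 and -0.069) and reversed to 0.13, called higher, with the third, and Gpc1 was no longer called only with the third (-0.055). In the same order the all-gene median went from -0.33 to -0.0012, 0.020 and 0.030. Removing the trend together with the replicate block gave 0.34 (Sdc1), -0.26 (Sdc2), 0.13 (Sdc3), 0.41 (Sdc4), -0.055 (Gpc1) and 0.11 (Gpc6), with the same outcomes except that Sdc3 was not called. Hspg2 was at -0.57 with median-ratio scaling, -0.63 under quantile normalization and -0.33 without the trend. Why length and GC content moved Hspg2, Sdc3 and Gpc1 more than the other settings did was not tested.

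With the replicate block alone no member's call changed (Hspg2 adjusted p = 2.75e-04 and Cd44 adjusted p = 0.00538 in limma), and 7962 genes were called in place of 8265. Same-numbered libraries did not deviate together, with correlations across genes of -0.056, -0.034 and -0.061. Such values cannot show whether same-numbered libraries shared a culture, day or batch.

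Over the 6 fits that each left out 1 library, log2 fold changes ranged from -0.07 to -0.03 for Sdc1, -0.73 to -0.56 for Sdc2, -0.40 to -0.35 for Sdc3, 0.02 to 0.11 for Sdc4, -0.54 to -0.51 for Gpc1 and -0.32 to -0.22 for Gpc6, which alone lost its call in 2 of them. The Sdc1 share difference (0.060 points) ranged from -0.31 to 0.41 points.

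Over all genes, 1065 were higher and 7200 lower. These counts were 3198 and 3094 with median-ratio scaling, 3111 and 2905 under quantile normalization, 3320 and 2690 without the trend, and 3095 and 2468 without the trend and with the block. At least 2-fold, 142 higher and 869 lower became 306 and 463, 314 and 416, 270 and 412, and 270 and 413 in the same order, and 94 were higher with TPM of at least 1 in all 6 libraries. Without known depth, counting error in low members such as Sdc2 and Gpc6 could not be assessed.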
